A study of Mus musculus with 3 samples.

Results

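The genes described are the 4 chains of the receptors for interleukin 18 (IL-18) and interleukin 12 (IL-12): Il18r1, Il18rap, Il12rb1 and Il12rb2. All probe sets whose platform annotation gives one of these symbols alone were taken, which gave 5 of the 45101 probe sets and 4 of 18194 named genes. Il18rap has 2 probe sets and the other genes 1 each. The genes were chosen with earlier results of these arrays known, so their values are a description.

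Gene expression was measured in mouse CD8 T cells of 3 groups, with 1 one-colour array for each. The VILLIN-HA/CL4-TCR group, and likewise the Villin-HA + CL4-TCR group, joins CD8 T cells specific for hemagglutinin (HA), an influenza virus surface protein, with an HA transgene that the villin promoter drives in gut epithelium. The CL4-TCR group has the T cells without the HA transgene. All 3 groups thus carry the transgenic CL4 T cell receptor, which limits them as a model of a natural T cell repertoire. The tissue label is MLN, read in the study as mesenteric lymph node. The submitters name activated and regulatory CD8 T cells beside ordinary ones, and which HA array holds which is not stated in the labels. Strain, age, the number of animals per array and any time of treatment are not stated there either.

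IL-18 is bound by the alpha chain of its receptor, encoded by Il18r1, and the beta chain encoded by Il18rap is needed for the signal, which runs through the adaptor MyD88 to NF-kappaB. IL-12 is bound by the chains encoded by Il12rb1 and Il12rb2, which work with the kinases TYK2 and JAK2 and activate STAT4. Il12rb1 also serves the IL-23 receptor, and Il12rb2 is known to be induced in activated T cells. The cytokines act together on T cells and NK cells to drive interferon gamma.

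Il18r1 and Il18rap lie beside each other on mouse chromosome 1, within a row of IL-1 family receptor genes, and both are read from the plus strand. Their promoters are shown because the transcripts of these neighbours differed in opposite directions on 1 of the arrays. Each sequence runs 5′ to 3′ from 250 bases before to 50 bases after a transcript start, from RefSeq on GRCm38.p6. Capitals mark matches to any of 4 motifs searched on both strands: GGTGTG (T-box factors), TTCNNNGAA (STAT factors), TGANTCA (AP-1) and TGTGGT (RUNX factors). Shown are the windows of starts 2 and 3 of the 3 Il18r1 starts, at chr1:40465371-40465670 and chr1:40465756-40466055, and of the 1 Il18rap start, at chr1:40515112-40515411.
Il18r1 start 2: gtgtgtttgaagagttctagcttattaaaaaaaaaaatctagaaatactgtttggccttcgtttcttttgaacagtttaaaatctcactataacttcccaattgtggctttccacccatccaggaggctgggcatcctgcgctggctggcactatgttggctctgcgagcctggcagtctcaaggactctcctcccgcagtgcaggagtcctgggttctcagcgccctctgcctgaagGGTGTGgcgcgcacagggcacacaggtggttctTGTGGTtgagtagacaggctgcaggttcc
Il18r1 start 3: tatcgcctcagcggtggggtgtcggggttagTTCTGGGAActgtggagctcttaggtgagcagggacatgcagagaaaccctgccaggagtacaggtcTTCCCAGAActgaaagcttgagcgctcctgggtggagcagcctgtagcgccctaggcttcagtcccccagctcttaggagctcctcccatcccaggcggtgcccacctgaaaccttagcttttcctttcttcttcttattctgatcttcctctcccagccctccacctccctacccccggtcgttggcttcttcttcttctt
Il18rap: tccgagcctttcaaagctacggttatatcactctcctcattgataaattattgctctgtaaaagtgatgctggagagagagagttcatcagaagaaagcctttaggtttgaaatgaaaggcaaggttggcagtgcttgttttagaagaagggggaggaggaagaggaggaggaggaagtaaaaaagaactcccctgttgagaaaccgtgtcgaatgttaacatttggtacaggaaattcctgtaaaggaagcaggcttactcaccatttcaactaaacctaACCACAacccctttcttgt

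The window of Il18r1 start 2 held 1 T-box and 1 RUNX match, that of start 3 held 2 STAT matches, and the Il18rap window held 1 RUNX match, on the minus strand. The window of Il18r1 start 1, which overlaps that of start 2, held none. No match to TGANTCA was found in these windows. Of all 32851 promoter windows of the same length, 19.0% held the T-box motif, 8.30% the STAT motif, 7.81% the AP-1 motif and 16.8% the RUNX motif. The Il12rb2 window, on the minus strand of chromosome 6, held 1 STAT match. A match says only that the letters are present.

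Expression is given as MAS5 signal, a linear intensity scaled by the authors to a trimmed mean of 150 on each array. A floor was set at a signal of 31.7, the median of all values, and lower values were raised to it before a log2 difference was taken. Genes past 2-fold in either direction were counted, and a fold with 1 value at the floor is a bound. Each group has a single array, which leaves no spread between replicates and no test, and every difference is between single arrays. The only measure of error is the disagreement among probe sets of 1 gene above the floor. Its SD on the log2 scale was 0.43 for VILLIN-HA/CL4-TCR over CL4-TCR, 0.65 for Villin-HA + CL4-TCR over CL4-TCR and 0.61 for VILLIN-HA/CL4-TCR over Villin-HA + CL4-TCR, and it covers probe effects, not animals or sorts.

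The arrays carried the transcripts of CD8 T cells. The 5 analysed markers listed for them were the CD8 genes Cd8a and Cd8b1, with the less specific Cd3e, Cd3g and Ptprc. All 5 were above the floor on each array, and none was past 2-fold in any comparison by its brightest probe set. The CD4 T cell markers Cd4 and Cd40lg lay below the floor on all 3 arrays. The other CD4 T cell marker, Zbtb7b, was above the floor on CL4-TCR alone by its brightest probe set. That probe set had signals of 18.2 in VILLIN-HA/CL4-TCR cells, 24.9 in Villin-HA + CL4-TCR cells and 60.9 in CL4-TCR cells. The log2 differences of the 2 Zbtb7b probe sets, however, spanned -0.94 to 0.75 in Villin-HA + CL4-TCR over CL4-TCR. The log2 differences of the Cd8a probe sets spanned -0.01 to 2.01 in Villin-HA + CL4-TCR over CL4-TCR. In VILLIN-HA/CL4-TCR over Villin-HA + CL4-TCR they spanned -2.07 to 0.10. Other facts differed between the arrays. The 3′ to 5′ ratio of the Gapdh control probe sets, which is lower for intact RNA, was 46.2 in VILLIN-HA/CL4-TCR cells, 3.35 in Villin-HA + CL4-TCR cells and 18.4 in CL4-TCR cells, while that of the beta-actin control was 2.46, 1.80 and 1.98 in the same order. Xist, which marks female cells, had signals of 2.5, 1339 and 5442.5 in this order, and the Y-linked Eif2s3y had 1496, 746.9 and 13.4. Both were above the floor on Villin-HA + CL4-TCR, and sex cannot be told apart from the group. The 5 skeletal muscle markers had a summed signal of 104 in VILLIN-HA/CL4-TCR cells, 4761 in Villin-HA + CL4-TCR cells and 71.7 in CL4-TCR cells. The 5 stroma and endothelium markers summed to 63.4, 710.5 and 88.1, with 3 of 4 measured ones past 2-fold higher on Villin-HA + CL4-TCR than on CL4-TCR. The 3 analysed proliferation markers summed to 4880, 7300.3 and 120.2, and all 3 were past 2-fold higher on both HA arrays than on CL4-TCR. Of all measured genes, 7.43% were past 2-fold higher on VILLIN-HA/CL4-TCR and 11.9% on Villin-HA + CL4-TCR than on CL4-TCR. The part of RNA quality, sex, muscle and stromal RNA and proliferation in the values below was not tested.

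Il18r1, the chain that binds IL-18, was lower on both HA arrays. Its signal was 131 in VILLIN-HA/CL4-TCR cells, 202 in Villin-HA + CL4-TCR cells and 928 in CL4-TCR cells. The probe set was brighter than 75.0% of all probe sets in VILLIN-HA/CL4-TCR cells, 80.4% in Villin-HA + CL4-TCR cells and 94.5% in CL4-TCR cells, so the CL4-TCR array stood apart. VILLIN-HA/CL4-TCR was 7.10-fold lower than CL4-TCR (log2 difference -2.83), a size of 6.54 probe-set SDs, and only 0.133% of the measured genes had a more negative difference. Villin-HA + CL4-TCR was 4.59-fold lower than CL4-TCR (log2 difference -2.20), or 3.38 probe-set SDs. Between the HA arrays Il18r1 was 1.54-fold lower on VILLIN-HA/CL4-TCR, which did not reach 2-fold and is 1.03 probe-set SDs. In these bulk samples, fewer cells with the transcript and less of it per cell cannot be told apart.

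Il18rap, the signalling partner of Il18r1, split the HA arrays. Its brighter probe set had a signal of 50.4 in VILLIN-HA/CL4-TCR cells, 415 in Villin-HA + CL4-TCR cells and 129 in CL4-TCR cells. The CL4-TCR value lay between those of the HA arrays. Il18rap was 2.57-fold lower on VILLIN-HA/CL4-TCR than on CL4-TCR (log2 difference -1.36) and 3.21-fold higher on Villin-HA + CL4-TCR than on CL4-TCR (log2 difference 1.68). Between the HA arrays it was 8.23-fold lower on VILLIN-HA/CL4-TCR than on Villin-HA + CL4-TCR (log2 difference -3.04), or 4.98 probe-set SDs, and 0.497% of the measured genes had a more negative one there.

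The dimmer Il18rap probe set had the same order of arrays. Its signal was 10.0 in VILLIN-HA/CL4-TCR cells, below the floor, 148 in Villin-HA + CL4-TCR cells and 40.5 in CL4-TCR cells. It gave a fold of 3.65 higher on Villin-HA + CL4-TCR than on CL4-TCR and of at least 4.67 lower on VILLIN-HA/CL4-TCR than on Villin-HA + CL4-TCR. For VILLIN-HA/CL4-TCR against CL4-TCR it allowed only a bound of at least 1.28-fold lower, so the 2-fold call in that comparison rests on the brighter probe set. The median of the pair was -0.86 on the log2 scale, and with the floor at the 65th percentile of all values the brighter probe set gave -0.92. Each rests on a VILLIN-HA/CL4-TCR value raised to the floor. Both are thus bounds, which do not reach 2-fold and do not show that the difference is smaller.

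**Figure D1:**
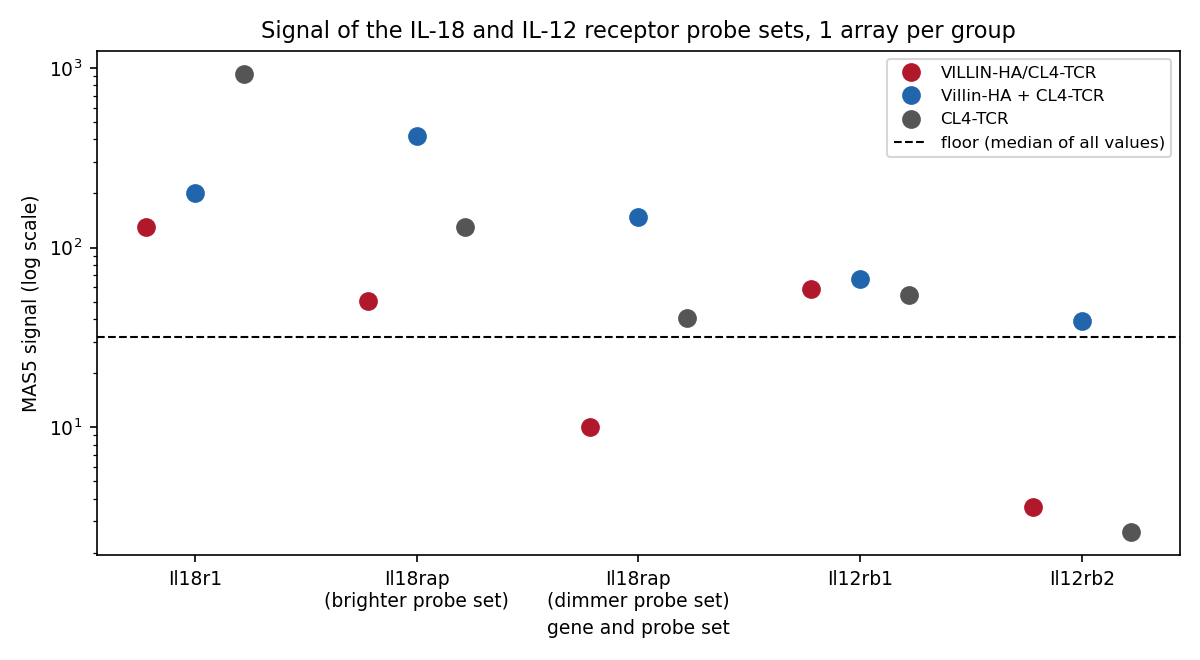
MAS5 signal (log axis) of the 5 probe sets of the receptor genes on each array, with 1 point per array and the floor of 31.7 as a dashed line. Il18r1 is highest on CL4-TCR, at 928, both Il18rap probe sets are highest on Villin-HA + CL4-TCR, at 415 and 148, and the Il12rb1 points lie between 54.2 and 66.8.

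Il12rb1, the chain shared by the IL-12 and IL-23 receptors, differed little. Its signal was 59.0 in VILLIN-HA/CL4-TCR cells, 66.8 in Villin-HA + CL4-TCR cells and 54.2 in CL4-TCR cells, all above the floor but low. The log2 differences were 0.12 for VILLIN-HA/CL4-TCR over CL4-TCR, 0.30 for Villin-HA + CL4-TCR over CL4-TCR and -0.18 for VILLIN-HA/CL4-TCR over Villin-HA + CL4-TCR. Each is under 0.5 probe-set SDs, and after scaling to equal medians the last one was 0.08, so its direction is not settled.

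Il12rb2, the chain particular to the IL-12 receptor, was above the floor on 1 array. It had a signal of 3.6 in VILLIN-HA/CL4-TCR cells, 38.9 in Villin-HA + CL4-TCR cells and 2.6 in CL4-TCR cells. The Villin-HA + CL4-TCR value exceeded the floor by a small margin, at least 1.23-fold above either of the other arrays, a bound short of 2-fold. At a lower floor, the 25th percentile, the bound became 2.11 on the log2 scale for Villin-HA + CL4-TCR over CL4-TCR, so the size of the difference is set by the floor. Values this low have no order among themselves, so no difference between VILLIN-HA/CL4-TCR and CL4-TCR is read for this gene.

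Of the 3 receptor genes measured in VILLIN-HA/CL4-TCR over CL4-TCR, 2 were lower and none higher, where 14.1% of 11260 measured genes passed 2-fold (7.43% higher and 6.63% lower). For Villin-HA + CL4-TCR over CL4-TCR, 1 of 4 was higher and 1 lower, beside 21.4% of 12196 genes (11.9% higher and 9.53% lower). Between the HA arrays, VILLIN-HA/CL4-TCR over Villin-HA + CL4-TCR, 1 of 4 was lower, beside 15.1% of 12081 genes (6.14% higher and 8.95% lower). The first pair of comparisons shares the CL4-TCR array. Because the genes were chosen from these arrays, the counts are not evidence beyond the values given.

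**Figure D2:**
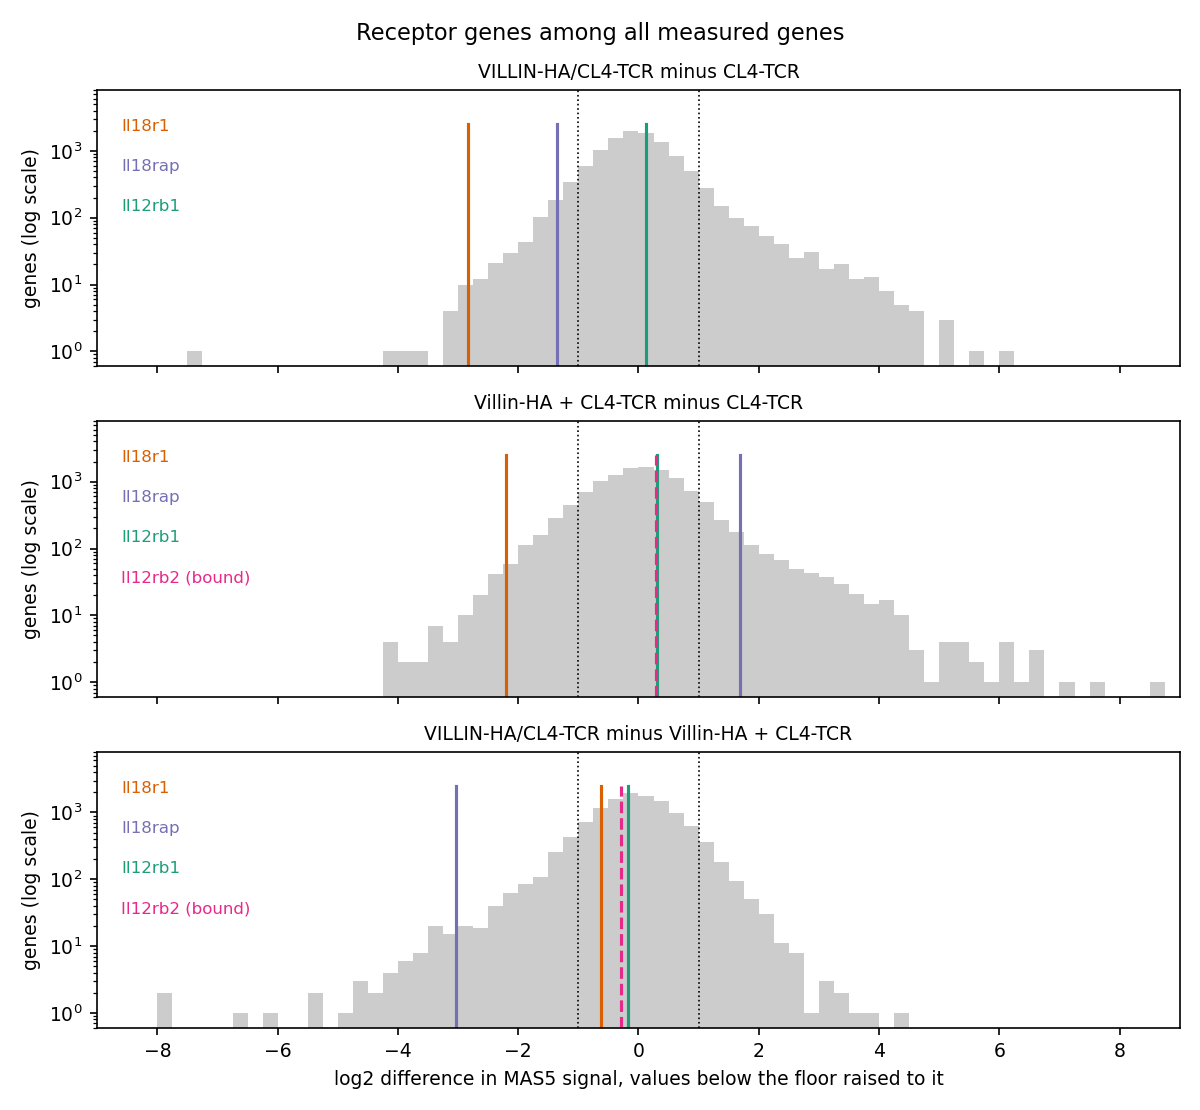
Number of measured genes (log axis) by log2 difference in each of the 3 comparisons, with the receptor genes as coloured lines (dashed for a bound) and 2-fold as dotted lines. Il18r1 lies far to the left in both comparisons with CL4-TCR, at -2.83 and -2.20, and Il18rap lies left in the first, at -1.36, and right in the second, at 1.68.

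None of the analysed neighbours of Il18r1 and Il18rap on chromosome 1 was 2-fold lower on either HA array than on CL4-TCR. Il1rl2, a receptor chain of the IL-36 cytokines, had signals of 84.0 in VILLIN-HA/CL4-TCR cells, 104 in Villin-HA + CL4-TCR cells and 140 in CL4-TCR cells, and no difference reached 2-fold. Il1r2, a decoy receptor for IL-1, had signals of 61.0, 89.1 and 9.6 in the same order, at least 1.92-fold higher on VILLIN-HA/CL4-TCR and at least 2.81-fold higher on Villin-HA + CL4-TCR than on CL4-TCR. Il1r1, the signalling receptor for IL-1, and the ion exchanger gene Slc9a4 on the other side lay below the floor on all 3 arrays. Il1rl1, which stands between Il1rl2 and Il18r1, was not analysed here.

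**Figure D3:**
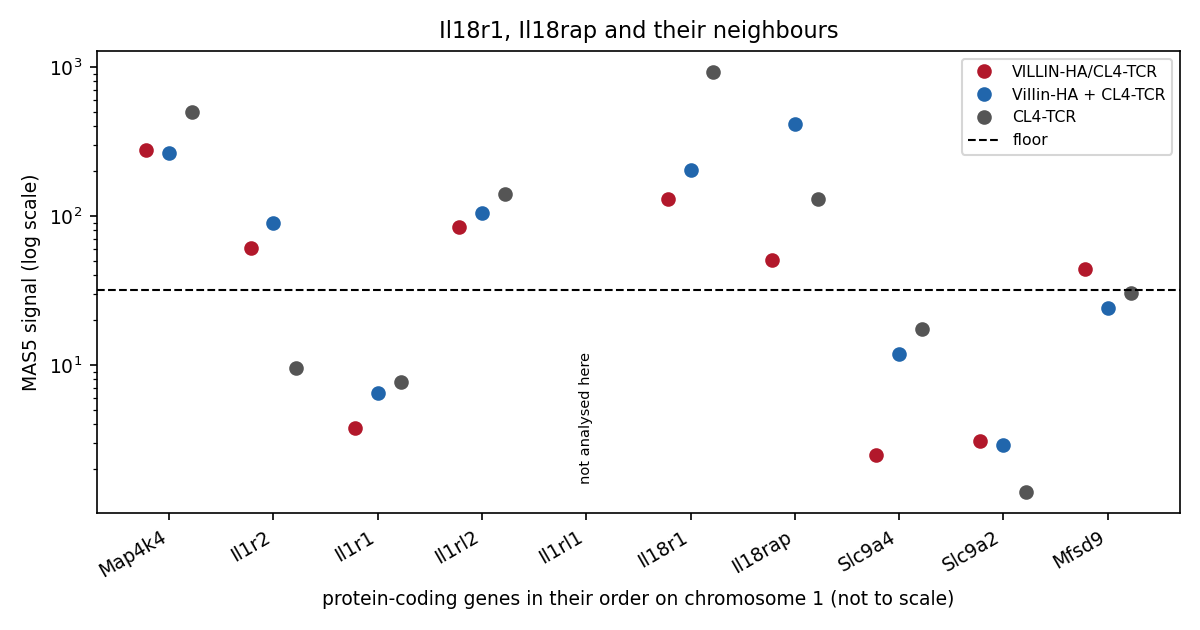
MAS5 signal (log axis) on each array of protein-coding genes in their RefSeq order along chromosome 1, not to scale, with the floor as a dashed line and no points for Il1rl1, which was not analysed here. Il18r1 and Il18rap stand next to each other, the first highest on CL4-TCR (928) and the second highest on Villin-HA + CL4-TCR (415).

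The genes most like each receptor gene were sought among 9013 other genes above the floor on all 3 arrays, by Euclidean distance in the log2 differences from CL4-TCR. With 3 arrays such likeness rests on 2 values per gene. Nearest to Il18r1 were Wnt5b, Ifit1bl1 and Zbtb7a, at distances of 0.12, 0.18 and 0.25. Nearest to Il18rap were Cops6, Epsti1 and Cxcr3, at 0.08, 0.10 and 0.19. Cxcr3, a chemokine receptor of effector and memory T cells, had signals of 335 in VILLIN-HA/CL4-TCR cells, 2753 in Villin-HA + CL4-TCR cells and 784 in CL4-TCR cells. Il12rb1, whose differences are near 0, lay within 0.02 of Mtmr11, Syt7 and Mypop. Il12rb2 was not above the floor on all arrays and was left out.

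Around the receptors, 48 genes of the pathway were listed by role, of which 45 were found among the named genes and Il23r, Il1rl1 and Irak4 were not analysed here. In VILLIN-HA/CL4-TCR over CL4-TCR, 10 of 39 measured genes were higher and 2 lower, with a median log2 difference of 0.28 beside -0.04 over all measured genes. For Villin-HA + CL4-TCR over CL4-TCR, 14 of 41 were higher and 3 lower, with a median of 0.32 beside 0.06. Between the HA arrays, VILLIN-HA/CL4-TCR over Villin-HA + CL4-TCR, 4 of 40 were higher and 6 lower, with a median of -0.30 beside -0.06. That last balance turned to 6 higher and 5 lower with arrays scaled to the same median, and to 5 and 5 without the less specific _s_at and _x_at probe sets. Of all measured genes, 7.43%, 11.9% and 6.14% were higher and 6.63%, 9.53% and 8.95% lower in these 3 comparisons. The responses held 5 of the 10 and 7 of the 14 higher genes. Most signalling genes differed by less than 2-fold by their brightest probe sets, as did most of all measured genes.

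Of the ligand genes, Il18 was above the floor on every array, with a signal of 88.2 in VILLIN-HA/CL4-TCR cells, 128 in Villin-HA + CL4-TCR cells and 40.2 in CL4-TCR cells. It was 2.19-fold higher on VILLIN-HA/CL4-TCR and 3.17-fold higher on Villin-HA + CL4-TCR than on CL4-TCR, the other way from Il18r1. IL-18 is known as a product of myeloid and epithelial cells. Of the 9 myeloid and dendritic cell markers, 5 were above the floor in VILLIN-HA/CL4-TCR cells, 7 in Villin-HA + CL4-TCR cells and 3 in CL4-TCR cells, with summed signals of 1482, 2015 and 217. The markers did not go together between the HA arrays. Of 8 measured there, Lyz2, Csf1r and C1qb were past 2-fold higher on VILLIN-HA/CL4-TCR by their brightest probe sets, and Itgax, S100a8 and S100a9 lower. The log2 differences of the Csf1r probe sets spanned -0.60 to 1.62 between the HA arrays. Of all measured genes, 6.14% were higher and 8.95% lower there. The part of myeloid and dendritic cells in the Il18 values was not tested. Il18bp, the secreted decoy that binds IL-18, had 60.6, 68.6 and 54.8 on the same arrays and differed by less than 2-fold. Il12b and Il23a lay below the floor on all 3 arrays, and Il12a, the smaller IL-12 subunit, was above it on Villin-HA + CL4-TCR alone, at 52.5.

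Of the other receptors of the IL-12 family, Il6st, the shared chain gp130, had a signal of 1468 in VILLIN-HA/CL4-TCR cells, 336 in Villin-HA + CL4-TCR cells and 1550 in CL4-TCR cells. It was thus 4.62-fold lower on Villin-HA + CL4-TCR than on CL4-TCR by its brightest probe set, although the log2 differences of its measured probe sets spanned -2.21 to -0.23. Il27ra, the IL-27 receptor chain, had signals of 1715, 800 and 2005 in the same order and was 2.51-fold lower on Villin-HA + CL4-TCR than on CL4-TCR. Neither gene reached 2-fold between VILLIN-HA/CL4-TCR and CL4-TCR, where Il18r1 and Il18rap did. Among 4 measured receptors of the IL-1 family, Il1r2 alone passed 2-fold, in Villin-HA + CL4-TCR over CL4-TCR, where 21.4% of all measured genes did. Sigirr, an inhibitory member, had signals of 417, 496 and 478, and Il1rap, the shared chain of IL-1 receptors, 106, 148 and 102.

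Of the 8 analysed signalling genes below the IL-18 receptor, all but Irak3 were above the floor on every array. Myd88, the adaptor, had a signal of 622 in VILLIN-HA/CL4-TCR cells, 680 in Villin-HA + CL4-TCR cells and 578 in CL4-TCR cells, so the groups lay close together. Of 7 measured genes in this role in VILLIN-HA/CL4-TCR over CL4-TCR, only Map3k8, a kinase of inflammatory signals, passed 2-fold, 3.76-fold higher. In Villin-HA + CL4-TCR over CL4-TCR, 2 of 8 were higher, Map3k8 (4.32-fold) and Irak2, a kinase downstream of MyD88 (2.30-fold). Over all measured genes, 14.1% and 21.4% passed 2-fold in these comparisons (7.43% and 11.9% higher). The adaptor Tab2 and the kinase Irak1 were bright on each array and differed by less than 2-fold in every comparison by their brightest probe sets. In Villin-HA + CL4-TCR over CL4-TCR the probe sets spanned log2 differences of -1.15 to 0.01 for Irak1 and -0.01 to 2.13 for the adaptor Traf6. In VILLIN-HA/CL4-TCR over Villin-HA + CL4-TCR they spanned 0.32 to 1.51 for Irak1, -1.43 to -0.40 for Traf6 and -0.11 to 1.30 for the kinase Map3k7.

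By their brightest probe sets, the genes that carry the IL-12 signal also mostly differed by less than 2-fold, as most measured genes did. Past 2-fold were 14.1% of all measured genes in VILLIN-HA/CL4-TCR over CL4-TCR and 21.4% in Villin-HA + CL4-TCR over CL4-TCR. Between the HA arrays the share was 15.1%. Stat4, the transcription factor that IL-12 activates, had signals of 1331 in VILLIN-HA/CL4-TCR cells, 1828 in Villin-HA + CL4-TCR cells and 1372 in CL4-TCR cells, short of 2-fold in each comparison. Of the 4 genes in this role, Jak2 was counted in VILLIN-HA/CL4-TCR over CL4-TCR, 2.12-fold higher with both probe sets near it (log2 differences of 1.08 and 1.09), and none was counted in the other comparisons by its brightest probe set. In Villin-HA + CL4-TCR over CL4-TCR the Jak2 probe sets gave 0.23 and 1.17, so the dimmer one passed 2-fold there too. Tyk2 and Stat3 differed by less than 2-fold by their brightest probe sets. The log2 differences of the Stat3 probe sets, however, spanned -0.08 to 2.41 in Villin-HA + CL4-TCR over CL4-TCR. In VILLIN-HA/CL4-TCR over Villin-HA + CL4-TCR they spanned -2.40 to -0.28.

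Among the inhibitors, Socs3, which blocks cytokine receptors that use gp130, had a signal of 415 in VILLIN-HA/CL4-TCR cells, 2795 in Villin-HA + CL4-TCR cells and 3452 in CL4-TCR cells. VILLIN-HA/CL4-TCR alone was low, 8.32-fold below CL4-TCR and 6.74-fold below Villin-HA + CL4-TCR. Tnfaip3, which encodes A20, a brake on NF-kappaB, was 2.02-fold higher on VILLIN-HA/CL4-TCR and 10.6-fold higher on Villin-HA + CL4-TCR than on CL4-TCR. The other inhibitors, among them Nfkbia, Ptpn6 and Cish, did not reach 2-fold by their brightest probe sets. The log2 differences of the Nfkbia probe sets spanned 0.28 to 1.26 in VILLIN-HA/CL4-TCR over CL4-TCR and 0.56 to 1.73 in Villin-HA + CL4-TCR over CL4-TCR. Socs1 was below the floor on Villin-HA + CL4-TCR, at 19.2, so its differences from that array are bounds.

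Transcription factors of effector and memory T cells went apart. Tbx21, which encodes T-bet and favours Il12rb2 in type 1 T cells, had a signal of 184 in VILLIN-HA/CL4-TCR cells, 257 in Villin-HA + CL4-TCR cells and 66.5 in CL4-TCR cells. It was 2.77-fold higher on VILLIN-HA/CL4-TCR and 3.87-fold higher on Villin-HA + CL4-TCR than on CL4-TCR. Eomes, a related factor of memory CD8 T cells, had signals of 185, 91.4 and 993 in the same order and was 5.38-fold lower on VILLIN-HA/CL4-TCR and 10.9-fold lower on Villin-HA + CL4-TCR than on CL4-TCR. Like Il18r1, Eomes was highest on CL4-TCR. Id2, a regulator of effector cells, was 2.97-fold higher on Villin-HA + CL4-TCR by its brightest probe set, but the log2 differences of its probe sets spanned -1.36 to 2.13. Runx3 did not reach 2-fold. Zeb2 lay near the floor, with signals of 20.7, 41.4 and 36.9 on the same arrays. Its differences from VILLIN-HA/CL4-TCR are bounds short of 2-fold, so their size is not known.

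Genes that respond to IL-12 and IL-18, and also to T cell receptor signals, were higher for 5 of 9 measured members in VILLIN-HA/CL4-TCR over CL4-TCR and for 7 of 9 in Villin-HA + CL4-TCR over CL4-TCR, with none lower. Their medians were 1.39 and 1.92 on the log2 scale, beside -0.04 and 0.06 over all measured genes. Of all measured genes, 7.43% and 11.9% were higher in the same comparisons. The list was chosen with earlier results of these data known. Gadd45b and Gadd45g, stress genes that sustain interferon gamma production, were 4.45-fold and 3.45-fold higher on VILLIN-HA/CL4-TCR, and 9.01-fold and 3.78-fold higher on Villin-HA + CL4-TCR, than on CL4-TCR. The log2 differences of the Gadd45b probe sets spanned 0.50 to 2.27 in the first of these comparisons and 0.37 to 3.27 in the other. Il2ra, the high-affinity IL-2 receptor chain, was at least 3.60-fold higher on VILLIN-HA/CL4-TCR and at least 9.29-fold higher on Villin-HA + CL4-TCR than on CL4-TCR. Ccl3, a chemokine gene, was at least 2.63-fold and at least 2.23-fold higher on the same arrays.

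Ifng, the gene most tied to these cytokines, had a signal of 58.7 in VILLIN-HA/CL4-TCR cells, 632 in Villin-HA + CL4-TCR cells and 4.2 in CL4-TCR cells. Villin-HA + CL4-TCR was thus the high array, as for Il18rap, and VILLIN-HA/CL4-TCR was 10.8-fold lower than it. Against CL4-TCR the genes parted, with Ifng at least 1.85-fold higher on VILLIN-HA/CL4-TCR and Il18rap 2.57-fold lower. Gzmb, which encodes granzyme B, had signals of 49.3, 12078 and 14.6 in the same order. Ccl4, another chemokine gene, went the other way, with 187, 45.0 and 51.4, and was 4.16-fold higher on VILLIN-HA/CL4-TCR than on Villin-HA + CL4-TCR. Nfkbiz, a nuclear IkappaB protein gene, was 2.24-fold higher on Villin-HA + CL4-TCR than on CL4-TCR by its brightest probe set. The log2 differences of its probe sets spanned 0.21 to 1.16 there. Csf2 lay below the floor on all 3 arrays.

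**Figure D4:**
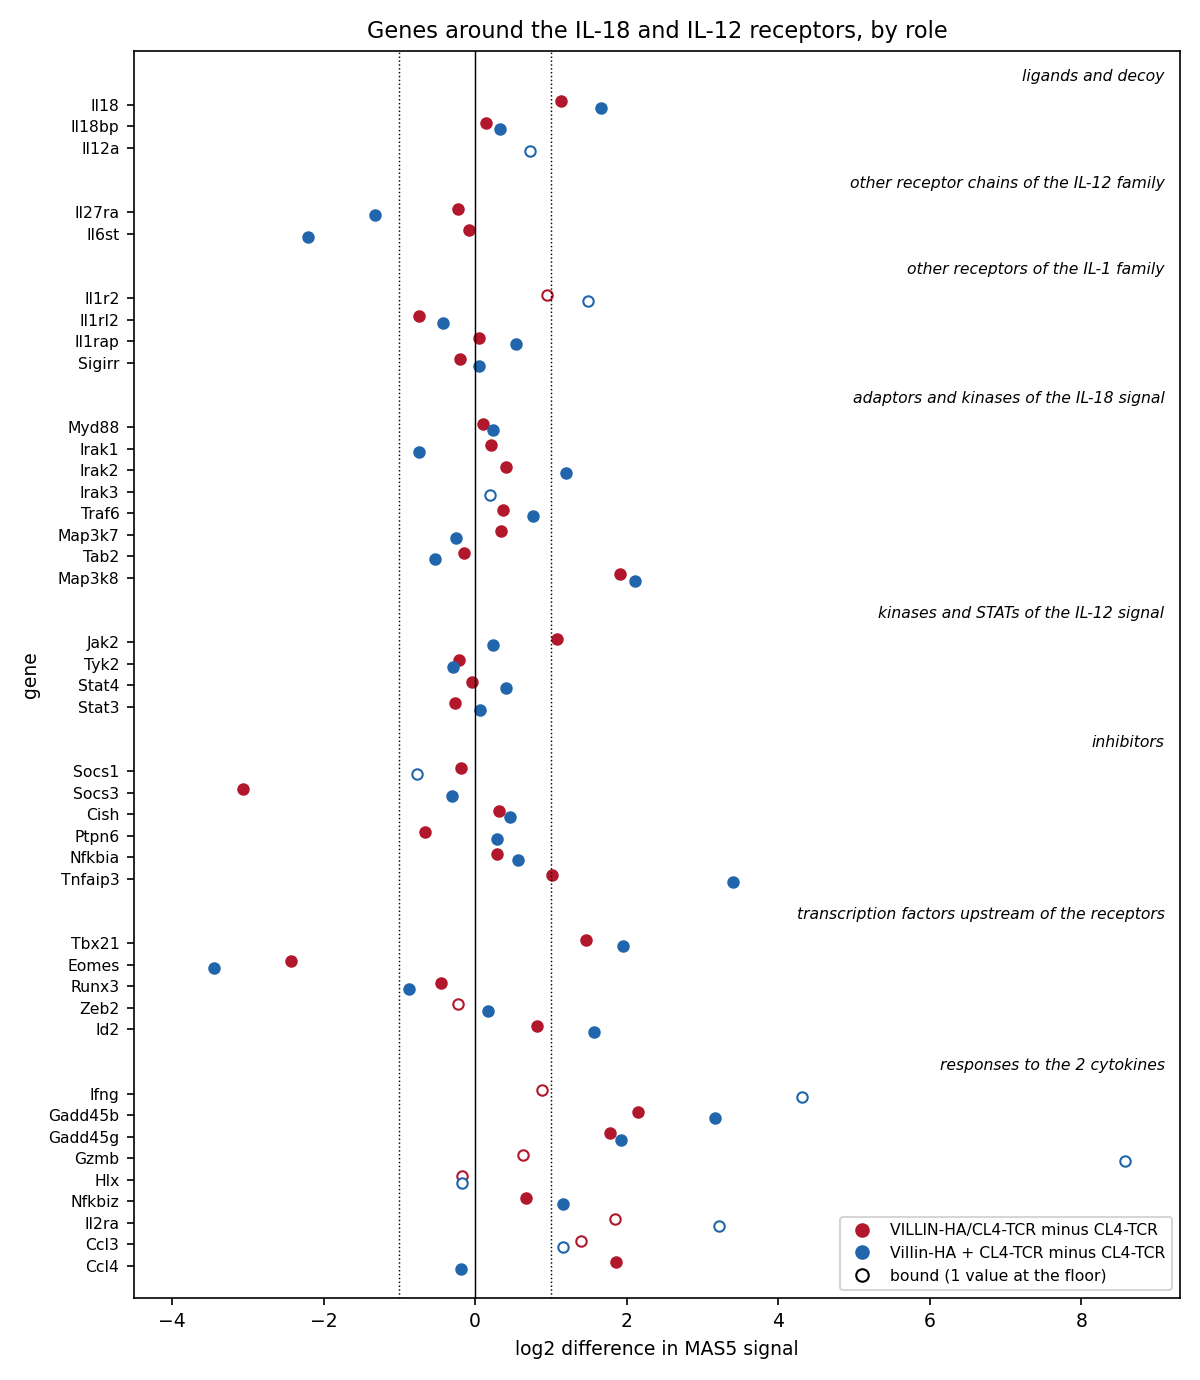
Log2 difference in MAS5 signal from the CL4-TCR array for the measured pathway genes, by role, with open points for bounds and dotted lines at 2-fold. Signalling genes such as Myd88 and Stat4 lie near 0, Eomes lies left on both HA arrays (-2.43 and -3.44), Socs3 lies left on VILLIN-HA/CL4-TCR alone (-3.06), and Gzmb and Ifng lie far right on Villin-HA + CL4-TCR.

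NK cells and innate lymphoid cells also carry these receptors. Of 7 analysed markers of those cells, 2 were above the floor in VILLIN-HA/CL4-TCR cells, 4 in Villin-HA + CL4-TCR cells and 2 in CL4-TCR cells, with summed signals of 281, 408 and 285. The NK receptor genes Ncr1 and Klra8 lay below the floor on all 3 arrays, while Klre1, Fcer1g and Tyrobp were highest on Villin-HA + CL4-TCR, at 50.4, 51.9 and 99.2. Gata3, a factor that T cells also express, gave the largest part of each sum and went the other way, with 137.1, 138.6 and 182.2. Memory CD8 T cells carry Il18r1 and Il18rap more than naive cells do. Of 7 measured memory markers, 2 were higher and 3 lower in VILLIN-HA/CL4-TCR over CL4-TCR, and 5 were higher and 1 lower in Villin-HA + CL4-TCR over CL4-TCR. In the first of these, the 2 higher were Cd44 (4.42-fold) and Ccl5 (4.30-fold), and the 3 lower were Cxcr3, Eomes and Klrd1. Eomes was the 1 lower marker in the other. Klrd1, an NK receptor chain of memory cells, had signals of 190 in VILLIN-HA/CL4-TCR cells, 2071 in Villin-HA + CL4-TCR cells and 2276 in CL4-TCR cells. Of 5 analysed naive T cell markers, 4 were lower on VILLIN-HA/CL4-TCR and 2 on Villin-HA + CL4-TCR than on CL4-TCR. Over all measured genes, 7.43% were higher and 6.63% lower in VILLIN-HA/CL4-TCR over CL4-TCR, and 11.9% and 9.53% in Villin-HA + CL4-TCR over CL4-TCR. The part of these cell types in the receptor values was not tested.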

How the data were processed

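The deposited values are one-colour MAS5 intensity values for 45101 probe sets on 3 arrays, per the submitters' processing notes, which name no version. Per the labels' protocols, biotin-labelled cRNA was made from 6 µg of total RNA. The trimmed mean of each array is 150, so a change common to nearly all transcripts cannot be seen. The sources used here give no background settings, and detection calls were not used.

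Probe sets were named through the platform annotation, updated by Entrez identifier to RefSeq genes of GRCm38.p6: 34958 had 1 symbol, 932 several and 9211 none, and the identifier was found for 34754. A gene was represented by its brightest probe set by mean signal. Values below the floor of 31.7 were raised to it, and a difference of 2-fold was counted. Groups hold 1 array each, so no test was made, and array number limits the precision. Counting was tested on simulated data. Python 3.11.15, numpy 2.4.6 and pandas 2.3.3 were used.

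Named were the 4 receptor genes, of each pathway role every gene past 2-fold and up to 3 others of high signal, the 3 genes most like each receptor gene, and cell type markers beside results. The receptor genes, lists and motifs were chosen with earlier results of these data known. Xist, Eif2s3y, the neighbouring genes and genes below the floor were named besides. The alternatives were other floors, a pseudocount of 16, scaling to equal medians, quantile normalization, other probe set rules, and folds of 1.5 and 3.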

Additional observations from a re-analysis of the deposited data

Results flagged for a closer look

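Il18rap differed from the CL4-TCR array in opposite directions on the HA arrays, by a log2 difference of -1.36 on VILLIN-HA/CL4-TCR and of 1.68 on Villin-HA + CL4-TCR. With 1 array per group, the difference between these was not tested. Of 10940 genes measured in both comparisons with CL4-TCR, 27 (0.247%) passed 2-fold in opposite directions, 23 of them in the directions of Il18rap, and Cops6, Epsti1 and Cxcr3 were among these. None of the 39 pathway genes measured in both did so.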

How the results depend on the processing

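No paired analysis was possible because each group holds 1 array, and no array could be left out. Of 77 recomputed differences of the receptor genes, leaving out Il12rb2 in VILLIN-HA/CL4-TCR over CL4-TCR, 32 equalled the reported value because the choice could not alter it. Of the other 45, 39 moved by less than the probe-set SD. Il18r1 has 1 probe set well above each floor, so 3 alternatives could change it (both scalings and the pseudocount), and under these it stayed past 2-fold on both HA arrays against CL4-TCR, at -2.78 to -2.69 for VILLIN-HA/CL4-TCR and -2.41 to -2.11 for Villin-HA + CL4-TCR. Il18rap in VILLIN-HA/CL4-TCR over CL4-TCR was -0.92 with the floor at the 65th percentile and -0.86 as the median of its probe sets, both bounds. Il12rb2 in Villin-HA + CL4-TCR over CL4-TCR was 2.11 with the floor at the 25th percentile and 1.56 with a pseudocount of 16 and no floor, and in VILLIN-HA/CL4-TCR over Villin-HA + CL4-TCR it was -2.11 and -1.49.

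The number of receptor genes past 2-fold in VILLIN-HA/CL4-TCR over CL4-TCR was 1 in place of 2 at 3-fold, with the floor at the 65th percentile and with the median of probe sets. In VILLIN-HA/CL4-TCR over Villin-HA + CL4-TCR it was 2 in place of 1 at 1.5-fold, with the floor at the 25th percentile and with the pseudocount. Pathway genes numbered 19 at 1.5-fold and 7 at 3-fold in place of 12 in VILLIN-HA/CL4-TCR over CL4-TCR, 17 and 6 in place of 10 in VILLIN-HA/CL4-TCR over Villin-HA + CL4-TCR, and 11 at 3-fold in place of 17 in Villin-HA + CL4-TCR over CL4-TCR. All genes past the fold numbered 3795 at 1.5-fold, 554 at 3-fold and 3830 with the floor at the 25th percentile in place of 1583 in VILLIN-HA/CL4-TCR over CL4-TCR. In Villin-HA + CL4-TCR over CL4-TCR they numbered 5376, 976 and 5245 in place of 2616, and 1729 with the median of probe sets. The same counts were, in VILLIN-HA/CL4-TCR over Villin-HA + CL4-TCR, 4490, 511 and 4414 in place of 1823, with 1183 at the 65th percentile and 1127 with the median of probe sets.

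With arrays scaled to the same median, the median difference of all genes was -0.14 for Villin-HA + CL4-TCR over CL4-TCR and 0.19 for VILLIN-HA/CL4-TCR over Villin-HA + CL4-TCR. The share of counted genes that were higher became 38.3% in place of 55.6% in the first of these and 67.1% in place of 40.7% in the second. Signals near the floor, as for Il12rb1 and Il12rb2, limit what these arrays can show.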
